A study of Homo sapiens with 4 samples.

Results

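Cells in the middle of DNA replication were described here: the single S-phase cells that had replicated from 40 to under 50% of their called genome. There were 117 such cells among 529, with 61 of 322 cells of HCT116 and 56 of 207 cells of DKO1. HCT116 is a human colorectal cancer cell line, and DKO1 was derived from it by knocking out DNMT1 and DNMT3B, which encode DNA methyltransferases. Per the labels, early, mid and late S-phase cells sorted by DNA content were pooled in equal numbers for 1 library per line, loaded at 500 cells per uL, and sequenced to read copy number along the genome of each cell. The deposited table holds 1 state code per cell and bin of 80 kb. Code 2 was read as replicated, code 1 as unreplicated and code 0 as not called, since the table does not define them. S-phase progress is the share of a cell's called bins, coded 1 or 2, that carry code 2. The cells were chosen by this measured progress, so the similar totals of the lines are set by the choice, and more replication in one part of the genome has to be offset elsewhere. With 1 library per line the lines were not tested against each other, no p-value is given, and cells are not replicates of a line. Whether DKO1 is 1 clone is not stated in the labels, and differences between clones cannot be told apart from the knockout.

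Human chromosomes replicate in domains of up to several megabases. Origins inside a domain fire at about the same time and forks from neighbouring origins merge, so that a domain passes from unreplicated through partly replicated to completed. Gene-rich open chromatin is known to replicate early in S phase, and compact gene-poor chromatin at the nuclear edge late. DNMT1 copies methylation onto newly made strands and DNMT3B can methylate unmethylated sites. A bin has 1 code although a cell holds more than 1 copy of each chromosome, so a locus at which a single homologue had replicated cannot be seen in these codes.

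Within the stratum HCT116 cells were somewhat further on. Progress ran from 40.3 to 49.99% in HCT116 with a median of 45.9%, and from 40.01 to 49.8% in DKO1 with a median of 43.99%. The nearest HCT116 cells outside the limits were at 39.8 and 50.1%, and the nearest DKO1 cells at 39.7 and 50.2%. Below 45% there were 26 HCT116 and 31 DKO1 cells. Code 0 took a median of 0.448% of the bins of an HCT116 cell (0.220 to 4.89%) and 1.61% of those of a DKO1 cell (0.217 to 14.1%). It took at most 1% of bins in 39 of 61 HCT116 cells and in 19 of 56 DKO1 cells. The libraries shared 0 cell barcodes. A group of 6 DKO1 cells stood apart with 345 to 541 replicated stretches, fewer than any HCT116 cell (633 or more), and with code 0 in 1.72 to 14.1% of bins. The main counts and shares are also given without them.

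Timing classes were set without the cells described. The 26964 bins called in at least 90% of the stratum's cells of each line were ranked by the share of cells in which they were replicated among 257 HCT116 and 150 DKO1 cells outside the stratum, at 20 to 80% progress, both lines weighted equally. They were cut into 3 equal classes of 8988 bins, late, middle and early. Runs of at least 5 neighbouring bins of a class (400 kb) formed 1495 timing domains, which held 96.1% of these bins. There were 374 late domains with a median span of 1.36 Mb, 697 middle domains of 0.72 Mb and 424 early domains of 1.12 Mb. In a cell, a domain was called completed when at least 90% of its called bins were replicated, not started when at most 10% were, and in progress otherwise.

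The first comparison asked which part of the genome the cells of each line had replicated at this point. DKO1 cells had replicated more of the late bins and less of the early bins. Late bins were replicated to a median of 2.47% in an HCT116 cell (0.534 to 8.95%) and 5.74% in a DKO1 cell (1.28 to 24.96%). Early bins were replicated to a median of 94.8% in HCT116 (85.3 to 98.3%) and 90.5% in DKO1 (68.1 to 97.7%). The ranges overlapped in both classes. The means differed by 3.89 points in late bins and by -5.33 points in early bins, with DKO1 compared to HCT116. Without the 6 cells with few tracks the DKO1 mean was 5.56% of late bins and 90.1% of early bins, against 2.69 and 94.2% in HCT116 on the bins kept then. The difference in late bins was 2.38 points among cells with little code 0 (at most 1% of bins) and 2.24 points with classes set by DKO1 cells alone. In middle bins the means were 41.3% in HCT116 and 39.3% in DKO1. That difference of -1.98 points was 0.232 points among cells paired for progress, so it had no stable direction.

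By deciles of the bins, the lines crossed between the fifth and the sixth decile from the latest. In decile 4 from the latest a mean of 11.6% of bins was replicated in HCT116 and 18.0% in DKO1, 6.48 points more. In decile 3 the means were 3.78 and 9.65%, and in the latest decile 1.19 and 2.33%. On the early side the gap was widest in decile 7, with 75.6% in HCT116 and 65.8% in DKO1, which differ by -9.77 points. In decile 8 the means were 90.8 and 82.1%. The earliest decile was nearly complete in both lines, at 99.1 and 97.6%. The lowest DKO1 cell had replicated 76.5% of that decile and the lowest HCT116 cell 93.9%. The SD over cells was larger in DKO1 in the 4 latest and the 4 earliest deciles, with 5.81 against 2.15 points in decile 3 and 9.16 against 4.81 points in decile 8. In the fifth and the sixth it was similar, with 6.17 against 6.21 and 8.15 against 8.11 points. The values by decile include the 6 cells with few tracks and were not recomputed without them.

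**Figure D1:**
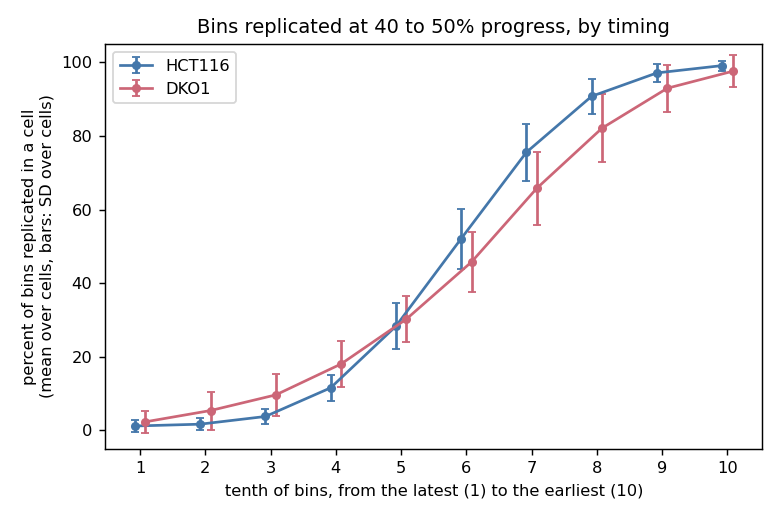
Percent of bins replicated in a cell, for deciles of the bins ordered from latest (1) to earliest (10) in cells outside the stratum. Points are means over 61 HCT116 and 56 DKO1 cells and bars are the SD over cells. The curve of DKO1 is flatter, with 18.0 against 11.6% in decile 4 and 65.8 against 75.6% in decile 7.

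The next comparison counted domains completed, in progress and not started in each cell. Middle domains, the class that was replicating in these cells, were in progress less often in DKO1. A median of 66.1% of the middle domains of an HCT116 cell were in progress (44.7 to 75.5%) and 53.1% of those of a DKO1 cell (13.4 to 66.3%). Only 1 of 56 DKO1 cells lay above the HCT116 median, and 8 lay below the lowest HCT116 cell. These 8 include all 6 cells with few tracks, among them the lowest at 13.4%. In numbers, a mean of 450.8 middle domains per cell were in progress in HCT116 and 350.6 in DKO1.

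Both other states of middle domains were more frequent in DKO1. A mean of 11.3% of middle domains were completed in HCT116 and 16.7% in DKO1, and 23.3 and 32.0% were not started. In 48 of 56 DKO1 cells the share not started was above the HCT116 median, and in 44 the share completed. The sizes depended on the processing. The difference in middle domains completed, 5.36 points, was 2.68 points with classes set by DKO1 cells alone, 2.54 with domains of at least 10 bins and 2.43 with windows of 20 bins in place of domains. That in middle domains not started, 8.71 points, was 4.29 with code 0 counted as unreplicated. The difference in middle domains in progress, -14.1 points, was -11.0 points without the 6 cells with few tracks and -13.2 points among 46 cells of each line paired within 0.5 points of progress. It kept its sign under all 15 alternatives run on it, from -16.5 to -9.04 points. The value nearest to 0 came from classes set by DKO1 cells alone.

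Late domains were rarely complete at this point in either line, and were completed more often in DKO1. A median of 1 late domain of 374 was completed in an HCT116 cell (highest 20) and 6 in a DKO1 cell (highest 82). The means were 2.18 and 10.4 domains, or 0.591 and 2.88% of those measured. No late domain was complete in 23 of 61 HCT116 cells (37.7%, exact 95% interval over cells 25.6 to 51.0%). The same held for 4 of 56 DKO1 cells (7.14%, 1.98 to 17.3%). At least 10 were complete in 4 HCT116 cells (6.56%, 1.82 to 15.9%) and in 19 DKO1 cells (33.9%, 21.8 to 47.8%). The size of this difference rested in part on few cells: 3 DKO1 cells held 33.0% of the 581 cases, and 3 HCT116 cells held 34.6% of 133 cases. Without the 6 cells with few tracks the means were 0.598% in HCT116 and 1.81% in DKO1, which differ by 1.22 points against 2.29 with them. Code 0 moved with it as well: the 19 DKO1 cells with little of it (at most 1% of bins) had a mean of 1.14% of late domains completed and the other 37 DKO1 cells 3.77%, against 0.467 and 0.811% in HCT116. Those 37 cells include all 6 cells with few tracks, so these limits are not separate. The split by code 0 was not recomputed without the 6 cells, and the part of code 0 in the difference was not tested.

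Late domains in progress were also more frequent in DKO1, at a mean of 14.7% of late domains against 7.46% in HCT116. In 50 of 56 DKO1 cells the share was above the HCT116 median, and 6 were above the highest HCT116 cell. This held without the 6 cells with few tracks (13.97 and 7.21%). It depended on how domains were drawn. The difference of 7.23 points was 2.34 points with classes set by DKO1 cells alone, and with fixed windows of 20 bins in place of timing domains it was -1.01 points.

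Few late domains were completed in many cells. In HCT116, 273 of the 374 late domains were completed in no cell, 79 in 1 cell and 1 in at least 5 cells. In DKO1, 128 were completed in no cell, 91 in 1 cell and 29 in at least 5 cells, and no late domain in more than 8 of 56 cells. When the 6 cells with few tracks were left out, 198 were completed in no DKO1 cell and 9 in at least 5. Picked for having the highest completed share in DKO1, chromosome 11 from 112720001 to 113120000 was completed in 8 of 55 DKO1 cells (14.5%). In HCT116 it was completed in 0 of 61 cells (exact interval 0 to 5.87%). It was the only late domain whose exact intervals did not overlap. Next came chromosome 11 from 123680001 to 124080000, also with 8 of 55 DKO1 cells and with 1 of 60 HCT116 cells. In HCT116 the late domain completed most often was chromosome 10 from 62880001 to 63280000, in 5 of 61 cells against 2 of 56 DKO1 cells. All 3 are short domains of 5 bins.

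Early domains were completed less often in DKO1. A median of 346 of the 424 early domains was completed in an HCT116 cell and 298.5 in a DKO1 cell, or 83.7 and 71.1% of those measured. Of the 56 DKO1 cells 11 lay above the HCT116 median and 5 below the lowest HCT116 cell. In DKO1 more early domains were in progress (means of 22.8 against 15.8%) and more were not started (6.62 against 2.08%). At least 10 early domains were not started in 22 of 61 HCT116 cells (36.1%, 24.2 to 49.4%) and in 44 of 56 DKO1 cells (78.6%, 65.6 to 88.4%). At least 10 late domains completed together with at least 10 early ones not started occurred in 1 HCT116 cell and 18 DKO1 cells, of which 12 remain without the 6 cells with few tracks. Without the 6 cells with few tracks, early domains not started were at 2.14% in HCT116 and 5.05% in DKO1, which differ by 2.92 points against 4.54 with them. The difference in early domains completed was -11.5 points over all cells and -7.49 at 45 to under 50% progress, where the lines were nearly equally far on. Among cells paired for progress it was -9.15 points, with 81.2% in HCT116 and 72.1% in DKO1. The difference in early domains in progress, 6.96 points, was 3.14 at 45 to under 50% progress and 5.05 among paired cells. It was 3.14 with code 0 as unreplicated and 4.47 with classes set by DKO1 cells alone. That in early domains not started was 2.64 points with domains of at least 10 bins and 2.08 with windows of 20 bins. With such windows the difference in early windows completed was -1.51 points, against -11.5 for timing domains, and that of windows in progress was -0.568 points.

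**Figure D2:**
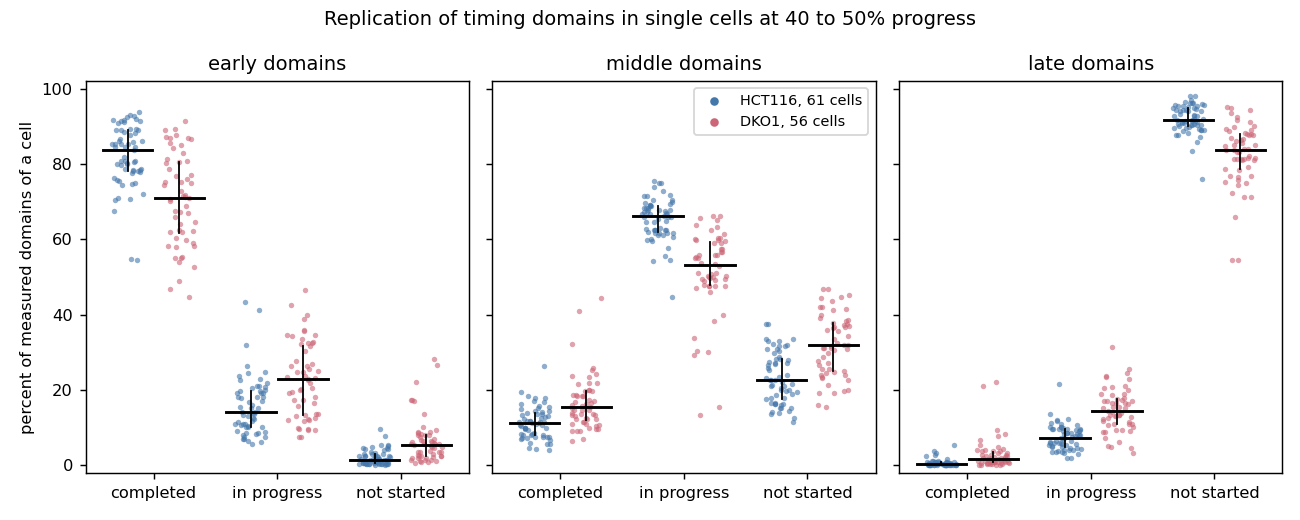
Percent of the measured early, middle and late timing domains that were completed, in progress or not started in each cell at 40 to under 50% progress. Each point is a cell (61 of HCT116, 56 of DKO1), horizontal lines are medians and vertical lines the quartiles. In middle domains the in-progress points of DKO1 lie lower (median 53.1 against 66.1%), while in late domains they lie higher (median 14.4 against 7.28%).

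Completion varied with domain length, but the limits are stricter for short domains. In a domain of 5 to 9 bins a single bin of the other state bars a call of completed or not started. Lengths were also not matched for timing within a class, and the cause of the trends with length was not tested. Among late domains of 5 to 9 bins a mean of 1.095% was completed in HCT116 and 5.51% in DKO1, while of the 65 late domains of at least 40 bins (3.2 Mb) 0.381 and 0.878% were completed. The DKO1 means were 3.60 and 0.646% without the 6 cells with few tracks (bins and domains as over all cells). Of those long late domains 95.8% were not started in HCT116 and 88.6% in DKO1. Long early domains were the most complete: of the 52 with at least 40 bins a mean of 91.3% was completed in HCT116 and 82.2% in DKO1, against 76.3 and 63.5% of the 128 with 5 to 9 bins. Among middle domains, 61.0% of the 351 shortest were in progress in HCT116 and 46.2% in DKO1, and of 94 with 20 to 39 bins 79.0 and 66.2%. The share of middle domains in progress was thus lower in DKO1 at each length, including the 13 longest (90.1 and 77.6%). The same held without the 6 cells, with DKO1 means from 49.4% of the shortest to 80.3% of the longest.

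A domain in progress most often held a single replicated run, in both lines and each class. In late domains in progress the replicated bins formed a single run in 81.6% of 1674 cases in HCT116 and in 76.6% of 2999 cases in DKO1. The run or runs took in 1 edge of the domain in 72.2 and 70.1% of cases and both edges in 8.12 and 11.5%. No edge was replicated in 19.7% of cases in HCT116 and 18.3% in DKO1, so that replication lay wholly inside the late domain. A late domain in progress was replicated to a mean of 27.6% in HCT116 and 32.7% in DKO1. In middle domains a single run was seen in 73.7% of 27500 cases in HCT116 and 77.4% of 19634 cases in DKO1, and no edge was replicated in 15.4 and 14.7%. In early domains in progress a mean of 72.2% of bins was replicated in HCT116 and 67.4% in DKO1. With those 6 cells left out, DKO1 had 2570 late cases with a single run in 76.3%, no edge replicated in 20.3% and a mean of 31.8% replicated. The share with no edge replicated was then slightly above that of HCT116 and not below it. These cases share cells and domains and are not independent.

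Each domain was then compared between the lines by the share of cells that had completed it. Of 1492 domains measured in at least 90% of the cells of each line, 79 (5.29%) were completed in more DKO1 cells by at least 20 points and 133 (8.91%) in fewer. By at least 30 points the counts were 16 (1.07%) and 51 (3.42%). The direction followed the class. Of the 79 higher domains 70 were middle and 9 early, and of the 133 lower domains 115 were early and 18 middle. The room for a difference was unlike between the classes, and its part in this split was not tested. The median share of HCT116 cells that completed a domain was 0% in late, 6.78% in middle and 83.3% in early domains. Most late and middle domains therefore could not fall by 20 points, and most early ones could not rise by 20. No late domain differed by 20 points, although late domains had room to rise by that much. The median difference was 1.82 points in late, 4.43 in middle and -10.1 points in early domains. Exact intervals over cells did not overlap for 83 higher and 99 lower domains. They take no account of the many domains compared or of variation between cultures. The counts depended on the cells and bins kept. Among 35 HCT116 and 25 DKO1 cells at 45 to under 50% progress 122 domains were higher and 110 lower, so the lower ones did not prevail there. Shares over fewer cells vary more, so these counts cannot be set directly against those of all cells. With code 0 as unreplicated 109 were higher and 87 lower. Of domains of at least 10 bins 19 were higher and 80 lower, and of windows of 20 bins 51 and 60. Keeping bins called in 99% of cells left 442 domains, of which 30 were higher and 44 lower. The counts were 62 and 128 without the 6 cells with few tracks.

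Some early domains were completed in every cell. In HCT116, 13 early domains were completed in all cells and in DKO1 2 were. The single domain complete in all measured cells of both lines (61 and 55) was chromosome 12 from 55840001 to 58480000, a domain of 33 bins. The other one complete in all 56 DKO1 cells was chromosome 17 from 17040001 to 18000000, which 60 of 61 HCT116 cells had completed. At the other end 110 domains, all late except 5 middle ones, were completed in no cell of either line.

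**Figure D3:**
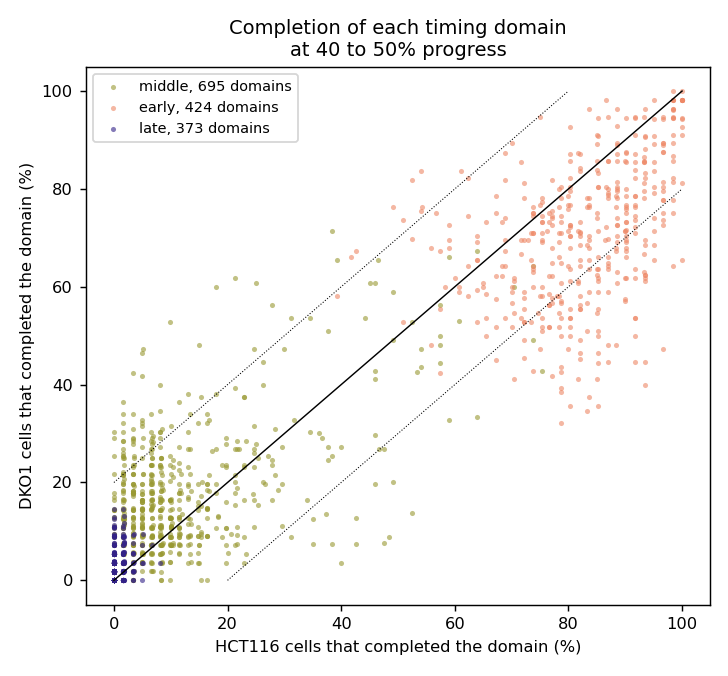
Share of HCT116 cells (x axis) and DKO1 cells (y axis) at 40 to under 50% progress that had completed each of 1492 timing domains. The solid line marks equal shares and the dotted lines a difference of 20 points. Early domains lie mostly below the line (median difference -10.1 points) and middle domains mostly above it (median 4.43 points).

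The 8 domains of at least 10 bins with the largest gain in DKO1 were nearly all middle domains. They were picked for their difference, which inflates its size. Coordinates are those of the deposited table, for which the submitters' processing notes name hg19 and GRCh37. Bins were not assigned to genes, since no annotation of that build was used. On chromosome 21 from 35840001 to 37280000 the domain was completed in 3 of 59 HCT116 cells, 5.08% (1.06 to 14.1%). DKO1 had 26 of 55 cells, 47.3% (33.7 to 61.2%). Most HCT116 cells, 43, had it in progress, with a mean of 30.8% of it replicated against 75.1% in DKO1. Among cells with little code 0 it was completed in 2 of 39 HCT116 and 12 of 19 DKO1 cells. On chromosome 15 from 81440001 to 82320000 the counts were 3 of 61 (4.92%) and 26 of 56 (46.4%). Another domain of chromosome 15, from 69840001 to 71040000, was completed in 3 of 61 (4.92%) and 18 of 56 cells (32.1%).

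The domain on chromosome 3 from 121920001 to 126640000 was the only early one among the gains, and the longest, with 4.72 Mb. It was completed in 33 of 61 cells of HCT116 (54.1%) and 46 of 55 cells of DKO1 (83.6%), and no cell of either line had yet to start it. Its gain of 29.5 points was 45.9 points in cells under 45% progress and 9.45 points among cells with little code 0 (at most 1% of bins). On the same chromosome, from 114720001 to 115760000, completion was 8.20% in HCT116 and 34.5% in DKO1.

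The domain on chromosome 4 from 11120001 to 12000000 had not been started by most HCT116 cells, 51 of 60. It was completed in 2 of 60 cells of HCT116 (3.33%) and 17 of 55 cells of DKO1 (30.9%). On chromosome 10 from 115280001 to 116880000 the counts were 4 of 61 (6.56%) and 19 of 56 (33.9%). On chromosome 9 from 137520001 to 138320000 they were 2 of 61 (3.28%) and 15 of 52 (28.8%), and 37 HCT116 cells had not started. There the difference was 25.6 points over all cells and 7.96 points among those with little code 0.

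All 8 domains with the largest loss in DKO1 were early, the class with the most room for a loss. On chromosome 12 from 116720001 to 117680000 nearly every HCT116 cell had completed the domain, 59 of 61 (96.7%, exact interval 88.7 to 99.6%), but 26 of 55 DKO1 cells had (47.3%, 33.7 to 61.2%). Of the other DKO1 cells 18 had it in progress and 11 had not started it, against 1 and 1 in HCT116. Among cells with little code 0 it was completed in 39 of 39 HCT116 and 12 of 19 DKO1 cells.

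Of all domains compared 8.91% were lower by at least 20 points, with 11 of 113 on chromosome 3 (9.73%) and 3 of 42 on chromosome 18 (7.14%). Chromosome 18 held 2 of the 8 largest losses. From 55200001 to 56640000 the domain was completed in 48 of 61 cells of HCT116 (78.7%) and 18 of 56 cells of DKO1 (32.1%). There 35 DKO1 cells had it in progress and 3 had not started it. From 9040001 to 10000000 it was completed in 51 of 61 (83.6%) and 21 of 56 cells (37.5%), and 10 DKO1 but 0 HCT116 cells had not started it. Chromosome 3 also held 2, from 135760001 to 136800000 with 53 of 61 (86.9%) and 25 of 56 cells (44.6%), and from 182640001 to 186640000 with 48 of 61 (78.7%) and 20 of 52 cells (38.5%). The latter is 4.00 Mb long. On average 85.9% of it was replicated in a DKO1 cell, against 94.4% in HCT116, and 31 DKO1 cells had it in progress while 1 had not started it.

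The remaining losses were of the same kind. On chromosome 10 from 11360001 to 13520000 completion was 51 of 60 cells (85%) in HCT116 and 23 of 56 (41.1%) in DKO1, and all the other cells had the domain in progress. On chromosome 1 from 177920001 to 180560000 it was 56 of 61 (91.8%) and 28 of 56 cells (50%). On chromosome 7 from 26160001 to 28160000 it was 49 of 60 (81.7%) and 23 of 56 cells (41.1%). Some sizes rested on which cells or limits were used. With completion at 100% of bins the gains on chromosome 3 at 114720001 and on chromosome 10 were 11.6 and 16.4 points, and the loss on chromosome 3 at 182640001 was -24.5 points. The gain on chromosome 4 was 16.2 points in cells under 45% progress, and the loss on chromosome 12 was -31.1 points with bins called in 99% of cells. No sign turned at the 16 domains under any alternative run. That adds no support, since the domains were picked for this difference. The alternatives rest mostly on the same cells or parts of them, and some cannot alter a domain's value.

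**Figure D4:**
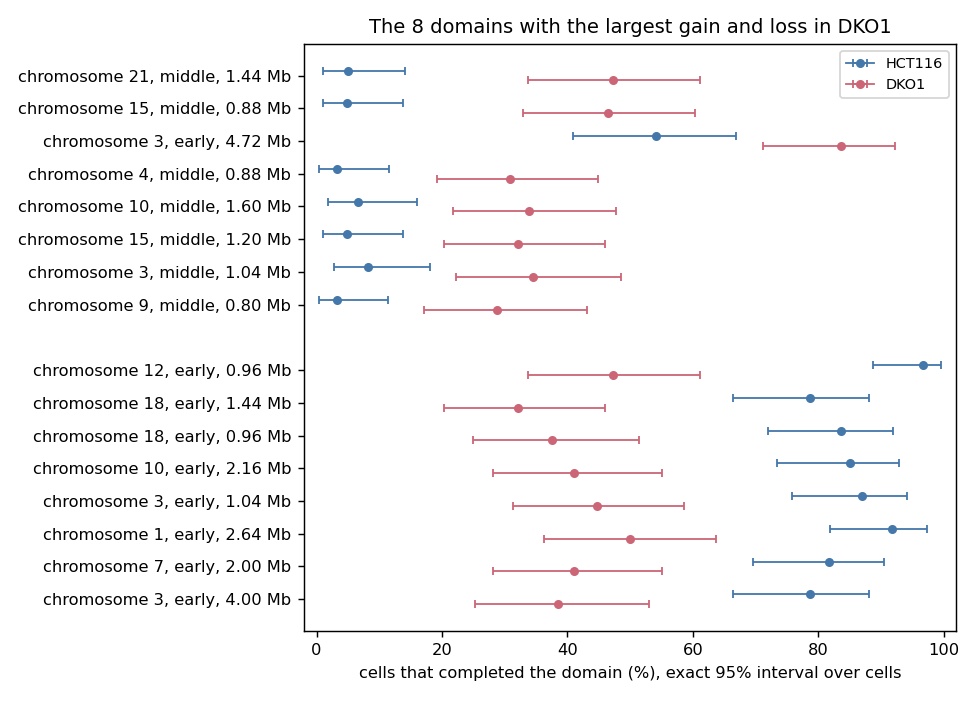
Share of cells at 40 to under 50% progress that had completed each of the 8 domains with the largest gain (upper block) and the 8 with the largest loss (lower block) in DKO1, by line. Bars are exact 95% intervals over cells, which cover counting error only. In the lower block HCT116 lies between 78.7 and 96.7% and DKO1 between 32.1 and 50%.

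Ranked by the share of cells with the domain in progress, the largest excess in DKO1 was on chromosome 16 from 16880001 to 18160000. It was in progress in 13 of 61 cells of HCT116 (21.3%) and 40 of 55 cells of DKO1 (72.7%), and 48 HCT116 cells had not started it. With domains completed from 80% of bins the difference was 28.9 points in place of 51.4. The next were the domains of chromosomes 18 and 10 given above, in which DKO1 cells were in progress and HCT116 cells complete. The largest deficit was on chromosome 1 from 245200001 to 246160000, in progress in 50 of 60 cells of HCT116 (83.3%) and 18 of 53 cells of DKO1 (34.0%). There 35 DKO1 cells had not started and none had completed it. On chromosome 7 from 122560001 to 123680000 the pattern was the same, with 45 of 61 and 14 of 54 cells in progress and 40 DKO1 cells not started. On chromosome 6 from 15920001 to 17520000 it was 51 of 61 and 20 of 56 cells, with 30 DKO1 cells not started and 6 completed.

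The longest domains show the extremes of this stage. The longest early domain, chromosome 1 from 39120001 to 48080000 (8.96 Mb), was completed in 60 of 61 cells of HCT116 (98.4%) and 46 of 53 cells of DKO1 (86.8%). The next, chromosome 11 from 60400001 to 69040000, was completed in 61 of 61 and 51 of 54 cells. On chromosome 19 from 43680001 to 52000000 DKO1 was not behind, with 52 of 55 cells (94.5%) against 55 of 61 in HCT116 (90.2%). The longest late domain, chromosome 13 from 64480001 to 73040000 (8.56 Mb), was completed in no cell. It was in progress in 5 of 58 cells of HCT116 (8.62%) and 14 of 51 cells of DKO1 (27.5%). The next, chromosome 4 from 59840001 to 68000000, was in progress in 3 of 59 and 1 of 56 cells, so a higher share in DKO1 was not seen in every long late domain. On chromosome 2 from 76080001 to 78800000, picked as the only late domain in progress in at least 50% of DKO1 cells, it was in progress in 8 of 59 HCT116 and 27 of 53 DKO1 cells and completed in none. Of the longest middle domains, chromosome 10 from 27440001 to 32000000 was in progress in 59 of 61 HCT116 and 46 of 56 DKO1 cells. On chromosome 7 from 92560001 to 96400000 a mean of 23.7% was replicated in HCT116 and 47.5% in DKO1.

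The third comparison asked how long the replicated and unreplicated stretches were. A track is a run of bins of 1 state on a chromosome, ended by a change of state, an uncalled bin, a gap or the chromosome end. DKO1 cells had fewer tracks. The number of replicated tracks had a median of 834 in HCT116 (633 to 1041) and 775.5 in DKO1 (345 to 887). Of 56 DKO1 cells 11 lay above the HCT116 median and 6 below the lowest HCT116 cell. Changes of state along the autosomes had a median of 1243 in HCT116 (841 to 1663) and 1137 in DKO1 (320 to 1347). Without the 6 cells with few tracks the medians were 838 and 807 tracks and 1250 and 1190.5 changes. Among cells with little code 0 the tracks differed by -31 and the changes by -37. Cells with more code 0 had fewer tracks in both lines (Spearman's rho -0.345 over 61 HCT116 cells and -0.373 over 56 DKO1 cells, which share their library). Whether code 0 accounts for the difference was not tested.

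The longest replicated track of a cell had a median of 9.52 Mb in HCT116 and 10.6 Mb in DKO1. The median replicated track of a cell was 800 kb in the median cell of both lines. The length-weighted median, the track length at which 50% of the replicated genome lies in longer tracks, was 2000 kb in HCT116 (1440 to 2640) and 2080 kb in DKO1 (1680 to 5040). It was higher in cells further on (rho 0.686 in HCT116 and 0.547 in DKO1), and DKO1 cells were less far on. The difference of 80 kb was 240 kb among cells at 45 to under 50% progress and 120 kb among cells paired for progress. It was 200 kb with code 0 as unreplicated and 0 kb with only tracks ended by a change of state on both sides. For unreplicated tracks the length-weighted median was 2720 kb in HCT116 (2160 to 3520) and 2960 kb in DKO1 (2400 to 6640). That median was lower in cells further on (rho -0.305 in HCT116 and -0.392 in DKO1). Its difference of 240 kb was 400 kb at 45 to under 50% progress, where the lines were nearly equally far on. Tracks of at least 5 Mb held a median of 20.7% of the unreplicated genome in HCT116 and 25.3% in DKO1 (24.1% without the 6 cells), and 49 of 56 DKO1 cells lay above the HCT116 median. Of the replicated genome they held 14.2 and 16.04%. An uncalled bin, a gap or a chromosome end cut a median of 39.3% of the tracks in HCT116 and 41.4% in DKO1, which shortens them.

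**Figure D5:**
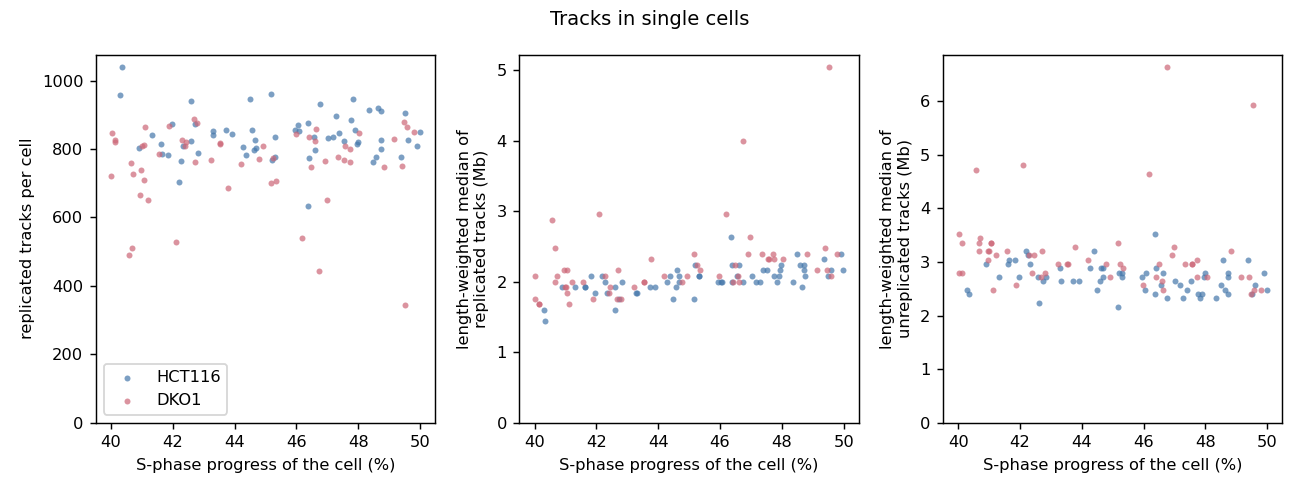
Number of replicated tracks per cell (left), and length-weighted median length in Mb of replicated (centre) and unreplicated tracks (right), against S-phase progress of the cell in percent. Each point is a cell. Of the DKO1 cells 6 have fewer tracks (345 to 541) than any HCT116 cell, and the highest length-weighted medians of DKO1, 5040 and 6640 kb, exceed those of HCT116.

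Split by the class in which most of a track lay, replicated tracks in late bins were more numerous and longer in DKO1. There were 33.8 per cell with a median of 240 kb in HCT116 and 53.8 per cell with a median of 400 kb in DKO1. Single bins made up 19.4% of them in HCT116 and 12.3% in DKO1, so the excess lay in tracks of more than 1 bin: 6.54 single-bin tracks per cell were seen in HCT116 and 6.61 in DKO1. In middle bins DKO1 had fewer replicated tracks, 288 against 355 per cell, and their median was 560 kb against 480 kb. In early bins the number was 412 against 450, with a median of 1200 kb in both lines. Unreplicated tracks in early bins numbered 67.0 per cell with a median of 240 kb in HCT116, and 81.5 with a median of 320 kb in DKO1. Leaving out the 6 cells with few tracks, DKO1 had 53.5 late replicated tracks per cell, of a median of 320 kb, with 6.74 single bins among them. The middle ones then numbered 305, with a median of 480 kb as in HCT116, and the early ones 429, with a median of 1120 kb.

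The longest tracks were mostly seen in 1 cell each. In HCT116 the longest replicated track, 27.1 Mb on chromosome 21 from 15840001 to 42960000, was in a cell at 44.6% progress in which 98.8% of chromosome 21 was replicated. Whether that cell held an extra copy of the chromosome was not tested. The next, 15.8 Mb on chromosome 13 from 19280001 to 35040000, was in a cell with 76.9% of that chromosome replicated, and 1 DKO1 cell had the whole stretch replicated too. The third, 13.9 Mb on chromosome 12 from 44720001 to 58640000, lies where a mean of 89.4% was replicated in HCT116 cells. In DKO1 the longest was 25.8 Mb on chromosome 2 from 179600001 to 205440000, in a cell at 40.9% progress with 67.2% of chromosome 2 replicated. The next were 22.8 Mb on chromosome 10 from 52560001 to 75360000 and 16.8 Mb on chromosome 3 from 24160001 to 40960000. In no other cell of either line was any of these 3 DKO1 stretches replicated throughout.

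Unreplicated tracks reached similar lengths. The longest in HCT116 were 22.0 Mb on chromosome 13 from 64480001 to 86480000, and 15.3 and 14.9 Mb on chromosome 21, both from 15200001. The last of these stretches, to 30080000, was unreplicated throughout in 4 HCT116 cells and 1 DKO1 cell. In DKO1 they were 28.2 Mb on chromosome 1 from 47600001 to 75840000, 26.9 Mb on chromosome 9 from 7040001 to 33920000 and 20.2 Mb on chromosome 7 from 19200001 to 39440000. All 3 lie in cells of the group of 6 with few tracks, and without these the longest was 16.96 Mb. The stretches of chromosomes 1 and 7 were replicated to a mean of 43.1 and 48.9% in DKO1 cells, so other cells of the line had replicated much of them.

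Cells of the stratum were compared in pairs to see how far they followed 1 order. A pair of DKO1 cells differed in more bins than a pair of HCT116 cells. The mean was 17.5% of bins over 1830 pairs of HCT116 cells (12.0 to 27.4%) and 23.7% over 1540 pairs of DKO1 cells (15.5 to 40.5%). An HCT116 and a DKO1 cell differed in 22.1% of bins over 3416 pairs, below the mean for pairs within DKO1. The excess in DKO1 was 6.28 points. It was present in late bins (5.19 and 11.9%), in middle bins (37.4 and 41.6%) and in early bins (9.78 and 17.7%). Without the 6 cells with few tracks the means were 17.5 and 22.3%. Bins replicated in 20 to 80% of the cells made up 24.5% of bins in HCT116 and 35.2% in DKO1. Bins replicated in all cells in which they were called made up 9.24 and 4.42%, and in none 11.2 and 3.89%. A single cell can take a bin out of these last groups. The shares of bins by number of cells were not recomputed without the 6 cells.

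Whole chromosomes of single cells varied more in DKO1 when all its cells were kept. The replicated share of a chromosome had a higher SD over cells in DKO1 on 18 of the 21 chromosomes with at least 100 bins, with a median SD of 4.58 points in HCT116 and 6.33 in DKO1. It was higher on 16 of 21 without the 6 cells with few tracks, where the DKO1 median was 5.61 points. The exceptions over all cells were chromosomes 5 (6.87 and 5.85), 21 (13.4 and 6.16) and 22 (11.8 and 7.41). The ratio was highest on chromosomes 1 (4.18 and 9.46) and 11 (3.30 and 7.46). Without the 6 cells the DKO1 SD was 4.35 on chromosome 1, near that of HCT116, and 6.52 on chromosome 11. Chromosome 22 was the most replicated (medians of 82.8 and 83.4%), followed by chromosomes 17 (72.5 and 71.0%) and 19 (67.2 and 69.2%). Only 163 bins of chromosome 22 were used, against 402 of chromosome 21, so values of chromosome 22 stand for those bins alone. Chromosome 13 was among the least replicated, at 29.4 and 32.1%. The largest lower median in DKO1 was on chromosome 7, with 42.1 against 37.0%, and the largest higher one on chromosome 21, with 35.6 against 40.3%.

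A chromosome of a cell departed by more than 15 points from its line's median in 23 of 1281 cases in HCT116 (1.80%) and 47 of 1176 in DKO1 (3.997%). The 6 cells with few tracks held 19 of the 47, and without them DKO1 had 28 of 1050 cases (2.67%). Chromosome 13 departed most often, in 5 of 61 HCT116 and 8 of 56 DKO1 cells, and in HCT116 chromosome 21 in 5 cells. The extremes were an HCT116 cell with 0% of the 163 used bins of chromosome 22 replicated, and a DKO1 cell at 40.7% progress. In that DKO1 cell 97.3% of chromosome 13 and 0% of chromosome 1 were replicated. That DKO1 cell had 50.8% of the bins of chromosome 1 called and is 1 of the 6 with few tracks. The cells were sequenced to read copy number, and whether such cells had gained or lost a chromosome was not tested. Without the departing chromosomes middle domains in progress differed by -14.003 points and late domains completed by 1.87 points.

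Cells less far and further on were set beside these. In HCT116 48.7% of middle domains were in progress at 30 to under 40% progress (49 cells), 65.4% in the stratum and 60.8% at 50 to under 60% (80 cells). In DKO1 the values were 41.7% (42 cells), 51.3% and 51.9% (49 cells), so DKO1 was lower in all 3 strata. Early domains were completed at 50.5, 82.1 and 94.3% in HCT116 and at 50.8, 70.6 and 87.0% in DKO1. The lines were not equally far on within a stratum, so the sizes of these gaps cannot be set against each other: median progress was 34.5, 45.9 and 55.0% in HCT116 and 36.4, 43.99 and 53.8% in DKO1. Late domains completed in DKO1 were at 1.94, 2.88 and 5.30%, against 0.468, 0.591 and 2.02% in HCT116. The difference between cells of a pair was similar in all 3 strata, with 17.7, 17.5 and 17.2% in HCT116 and 23.0, 23.7 and 23.2% in DKO1. Cells of the outer strata helped to set the classes, so their values are not independent of them. Differences between strata were not tested.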

How the data were processed

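The authors deposited 1 table of state codes 0, 1 and 2 for bins of 80 kb, with a column per S-phase cell and, per the file headers, the line in each column name. Its title names a hidden Markov model and calls the codes binarised. The submitters' processing notes list Cell Ranger, SAMtools 1.10, bedtools 2.26.0, hg19 and GRCh37, with no roles. The software and filters behind the codes, and how many reads each cell had, are not given in sources used here, so precision per call is unknown.

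Of 27704 bins on 22 autosomes, 26964 were used. Chromosome 8 has 21 bins and was not named. Of chromosome 22, 163 bins were used. All bins entered the progress. A domain counted in a cell with at least 80% of its bins called, bridging at most 1 missing bin. Named were, among domains of at least 10 bins, the 8 with the largest difference in completion in each direction, the 3 with the largest difference in progress, the 5 longest of each class, and the 3 longest tracks of each state and line. Of the 5 longest domains of each class the text describes some. Alternatives changed the cells, the bins kept, the use of code 0, the classes, the completion limit, the domains and the track rules, 1 at a time. The functions were tested on simulated data. Intervals are exact (Clopper-Pearson, 95%), over cells. The cells, lists and definitions were chosen with earlier results of these data known. G1 libraries were not analysed here. Python 3.11.15, NumPy 2.4.6 and SciPy 1.17.1 were used.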

Additional observations from a re-analysis of the deposited data

Results flagged for a closer look

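Code 0, which the main comparisons leave out of shares and which ends tracks there, took up more bins in DKO1 cells than in HCT116 cells. It took a mean of 2.46% of the bins of a DKO1 cell at 40 to under 50% progress and 1.21% of those of an HCT116 cell. At most 1% of bins were coded 0 in 63.9% of the HCT116 cells and in 33.9% of the DKO1 cells. The code is not defined in the table, and what it stands for was not tested. In cells with more code 0, more early domains were not started: 3.79% against 1.12% in HCT116, and 7.97% against 4.01% in DKO1. The DKO1 cells with more code 0 include all 6 cells with few tracks, in which 13.6 to 28.25% of early domains were not started. The DKO1 values were not recomputed without them.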

How the results depend on the processing

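With no replicate libraries, a value of a comparison is said to have moved where it changed by over 1.5 times. Of 258 such values 206 kept within that, 47 moved and 5 turned sign. For named domains 342 values were recomputed, some under settings that cannot alter them, and 0 turned sign. These domains were picked for their difference mostly in the same cells, so this adds no support. No paired analysis was possible because each line is 1 library. Pairing cells for progress and leaving out cells with few tracks were chosen after seeing the data. The cause was not tested. Differences are DKO1 minus HCT116, domains in points and tracks as medians.

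The sign turned for middle bins replicated at 45 to under 50% progress (0.113), with code 0 as unreplicated (1.66) and in paired cells (0.232), and with windows of 20 bins for late (-1.01) and early ones in progress (-0.568). Middle bins moved to -3.55 with bins called in 99% of cells, -0.975 at 40 to under 45%, -1.02 with little code 0 (at most 1% of bins) and -1.11 with classes from HCT116.

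With bins called in 99% of cells, 44 domains were lower and 30 higher, tracks differed by -19, state changes by -26.5 and the unreplicated weighted median by 80 kb. At 45 to under 50%, early domains completed were -7.49, in progress 3.14, 122 domains were higher, and the weighted medians differed by 240 and 400 kb. With little code 0, late bins were 2.38, late completed 0.604, tracks -31, changes -37 and the unreplicated median 400 kb. With classes from DKO1, early in progress were 4.47, late bins 2.24, late in progress 2.34, late not started -3.98, middle completed 2.68 and middle in progress -9.04. With code 0 as unreplicated, early in progress were 3.14, middle not started 4.29, 87 domains were lower, and the replicated median 200 kb. At 30 points 51 domains were lower and 16 higher. With domains of at least 10 bins, early not started were 2.64, middle completed 2.54, and 80 were lower and 19 higher. In uncut tracks the replicated median differed by 0 kb and tracks by -38.5. With windows, early completed were -1.51, early not started 2.08, late not started -0.616, middle completed 2.43, and 60 were lower and 51 higher. Without the cells with few tracks, early not started were 2.92, late completed 1.22, tracks -31 and changes -59.5.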
